A study of Homo sapiens with 4 samples.

Results

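The 10 genes described here encode the core of the hypoxia-inducible factor (HIF) system and a pair of carbonic anhydrases that this system is known to induce: HIF1A, EPAS1, ARNT, EGLN1, EGLN2, EGLN3, VHL, HIF1AN, CA9 and CA12. They were taken by symbol from a table of raw counts for 48162 genes, and all 10 were found. This set and the other gene lists below were chosen with earlier results of these data known. The RNA was labelled as that of MDA-MB-453 cells, an established human breast cancer line that is known for its luminal and apocrine traits. A group labelled TMEM9 KD, with reduced TMEM9, was set against a wild-type group (WT), with 2 libraries in each. TMEM9 encodes a membrane protein of endosomes and lysosomes. How its RNA was reduced, whether KD cells were 1 clone or a pool, and in what oxygen the cells were grown, the labels do not say.

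HIF is a transcription factor made of an oxygen-sensitive alpha subunit, encoded by HIF1A or EPAS1, and a stable partner, ARNT. In oxygen, the prolyl hydroxylases EGLN1, EGLN2 and EGLN3 mark the alpha subunit, VHL binds the marked protein and sends it for degradation, and HIF1AN hydroxylates an asparagine that the coactivators would otherwise contact. This control acts on protein, so that levels of mRNA alone do not give HIF activity. EGLN3, EGLN1 and CA9 are known targets of HIF, and CA9 and CA12 are membrane enzymes that convert carbon dioxide and water to bicarbonate and protons outside the cell, CA9 being widely used as a marker of hypoxic tumour regions.

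Libraries held between 15323843 and 18517337 counts. TMEM9 itself had 51 and 78 counts in TMEM9 KD, against 1120 and 1497 in WT (log2 fold change -4.37, SE 0.13, edgeR quasi-likelihood adjusted p = 4.12e-52), which goes with the labels. The design text of the series speaks of retina, while each sample is labelled as the breast cancer line. The 13 luminal and apocrine markers summed to 699 and 724 CPM in TMEM9 KD and 733 and 739.9 CPM in WT, with 3 higher and 4 lower of 8 tested, where CPM is the count scaled to library size (per 1e6) after TMM factors. Of these, PIP, an apocrine secretory protein, had no count in any library, and SPDEF, a luminal transcription factor, had at most 2 counts. TFF3, AGR2 and KRT19, also luminal, had at most 1, 3 and 6 counts. Markers of the labelled line were thus at or near 0 in both groups, the identity of the cells was not tested, and MDA-MB-453, TMEM9 KD and WT are given here as labels. The 7 basal epithelial markers all fell, with a summed level of 121.9 and 126.8 CPM in TMEM9 KD and 428.6 CPM in both WT libraries. Summed levels of 9 fibroblast markers were 1536 and 1706 CPM in TMEM9 KD and 2076 and 2110.2 CPM in WT, with 4 higher and 4 lower of 8 tested. That sum hides large opposite changes. COL3A1 had 27.7 and 34.5 CPM in TMEM9 KD and 947 and 966 CPM in WT. COL1A1 had 1300 and 1473 CPM in TMEM9 KD and 815 and 832 CPM in WT. By the same test, 28.7% of all genes tested were higher and 29.0% lower at an adjusted p below 0.05. Of 9 leukocyte markers, CD3E, MS4A1 and LYZ had no count, the 3 tested gave 1 higher and 2 lower, and the list summed to 7.33 and 6.47 CPM in TMEM9 KD and 11.1 and 13.2 CPM in WT. None of the 4 endothelial markers matched could be tested, and they summed to 0.611 and 1.15 CPM in TMEM9 KD and 0.0669 and 0.0556 CPM in WT. Mitochondrially encoded transcripts took 2.83% to 3.18% of the counts in TMEM9 KD and 3.98% in both WT libraries. Their part in the results below was not tested, and in RNA from bulk cultures fewer cells that express a gene cannot be told apart from less RNA per cell.

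The promoters of CA9, EGLN3 and CA12, which changed most, and of EGLN1, the prolyl hydroxylase that changed least, are shown because HIF binds DNA at a short core, ACGTG or GCGTG, known as the centre of the hypoxia response element. RefSeq windows of GRCh38.p14, from 250 bases before to 50 bases after a transcription start, were found for 9 of the 10 genes, in 11 windows, with none for VHL. The 2 cores were searched on both strands. The letters ACGTG or their reverse complement CACGT stood in 3 of the 11 windows, and in 21.4% of all 35116 windows of the same length. GCGTG or CACGC was found in 36.5% of all windows, and either core in 6 of the 11 windows and 48.4% of all. The following windows are written 5′ to 3′ on the strand of the gene, with the cores in capitals.
CA9 (chr9:35673678-35673977, plus strand): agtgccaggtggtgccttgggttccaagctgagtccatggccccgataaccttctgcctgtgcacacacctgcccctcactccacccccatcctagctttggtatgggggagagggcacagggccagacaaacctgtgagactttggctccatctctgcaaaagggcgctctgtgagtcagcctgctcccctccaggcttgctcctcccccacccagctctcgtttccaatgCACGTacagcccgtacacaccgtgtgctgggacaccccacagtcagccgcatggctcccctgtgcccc
EGLN3 (chr14:33951025-33951324, minus strand): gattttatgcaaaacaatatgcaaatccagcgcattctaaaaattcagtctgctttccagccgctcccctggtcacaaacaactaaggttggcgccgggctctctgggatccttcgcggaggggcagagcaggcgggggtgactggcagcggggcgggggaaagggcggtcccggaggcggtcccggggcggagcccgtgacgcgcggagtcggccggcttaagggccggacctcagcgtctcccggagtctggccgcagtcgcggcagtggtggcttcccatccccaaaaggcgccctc
CA12 (chr15:63381797-63382096, minus strand): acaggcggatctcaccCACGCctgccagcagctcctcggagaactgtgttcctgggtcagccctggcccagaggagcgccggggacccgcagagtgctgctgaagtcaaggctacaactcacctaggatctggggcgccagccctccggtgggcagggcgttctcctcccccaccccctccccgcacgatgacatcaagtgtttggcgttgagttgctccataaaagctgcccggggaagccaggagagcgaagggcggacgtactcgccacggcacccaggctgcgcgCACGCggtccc
EGLN1 (chr1:231422238-231422537, minus strand): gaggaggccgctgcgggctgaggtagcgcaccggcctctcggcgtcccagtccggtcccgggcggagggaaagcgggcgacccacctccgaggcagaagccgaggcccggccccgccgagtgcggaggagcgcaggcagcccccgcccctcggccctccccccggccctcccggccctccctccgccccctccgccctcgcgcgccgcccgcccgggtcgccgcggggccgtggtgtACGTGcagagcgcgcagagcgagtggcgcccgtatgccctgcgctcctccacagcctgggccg
CA9 holds ACGTG on the opposite strand, 18 bases before its start, and EGLN1 holds it on its own strand, 13 bases before its start. CA12 holds no ACGTG and has GCGTG on the opposite strand, 234 bases before the start and again from base 40 of the transcript. The EGLN3 window has neither core. EGLN2, not printed, holds the palindrome CACGTG, in which ACGTG overlaps itself on both strands. HIF1A and EPAS1 each hold GCGTG once, 204 and 117 bases before their starts. These matches describe letters in a window, and binding was not measured. The 3 genes with ACGTG had log2 fold changes of -5.73 (CA9), -0.56 (EGLN2) and -0.33 (EGLN1). Whether a core in the window bears on the change was not tested.

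All 10 genes passed the filter on low counts. By edgeR's quasi-likelihood test with an adjusted p below 0.05, 9 of the 10 fell in TMEM9 KD and 1, HIF1AN, rose. Over all 14923 genes tested, 57.7% were called, 29.0% as lower and 28.7% as higher. Both knockdown libraries lay below both WT libraries in the same 9 genes and above them for HIF1AN, where 38.5% of all genes were lower without overlap and 39.1% higher without overlap. Falls of at least 2-fold were found for CA9, EGLN3 and CA12, against 10.1% of all genes, and falls of at least 10-fold for CA9 and EGLN3, against 2.10% of all genes. The median log2 fold change was -0.63 over the 10 genes and 0.0070 over all genes tested. The labels do not tell whether replicates were separate cultures, and p-values speak only of the differences among these 4 libraries.

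**Figure D1:**
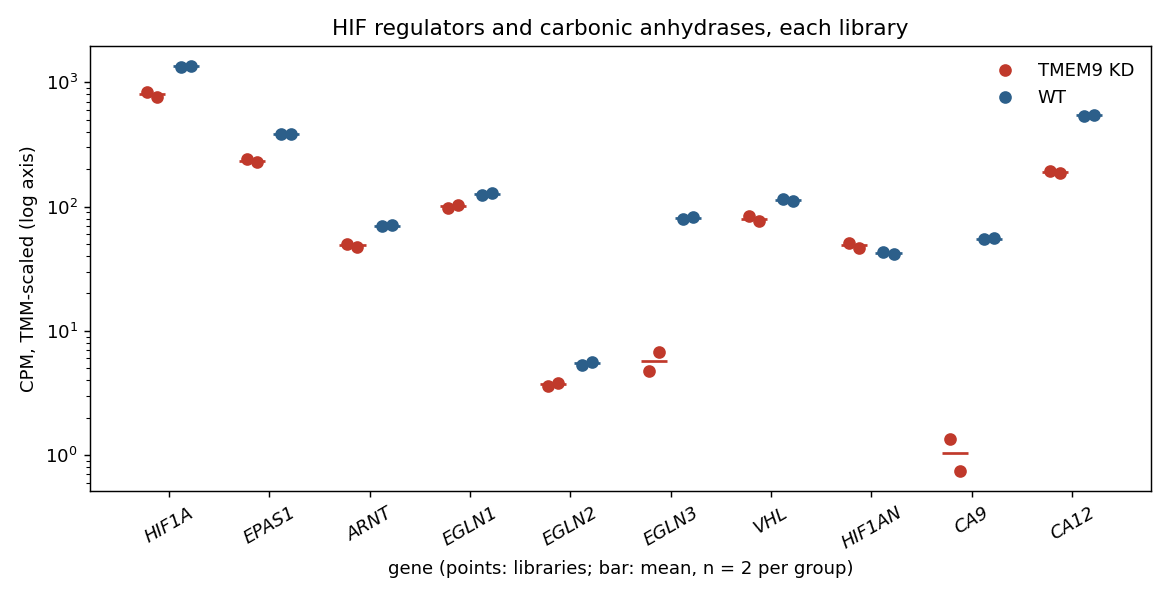
CPM (TMM-scaled, log axis) of each gene in each library, with TMEM9 KD in red to the left of WT in blue; points are libraries and bars the mean of 2. CA9 and EGLN3 show the widest gaps between groups, and HIF1AN alone has its TMEM9 KD points above its WT points.

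The alpha subunits fell by similar amounts. HIF1A, the widely expressed alpha subunit, had 844 and 769 CPM in TMEM9 KD, against 1336 and 1349.5 CPM in WT. Both knockdown libraries were lower, with a wider gap between them than between the WT libraries. The log2 fold change of HIF1A was -0.74 (SE 0.05, edgeR quasi-likelihood adjusted p = 7.06e-24), which left TMEM9 KD at 60.1% of the WT mean. EPAS1, the alpha subunit also called HIF-2 alpha and known for its role in endothelium and kidney, had 239.9 and 229 CPM in TMEM9 KD and 383 and 382 CPM in WT. It stood at 61.3% of WT, with no overlap (log2 fold change -0.71, SE 0.06, edgeR adjusted p = 6.95e-20). ARNT, the partner of both, had 49.8 and 47.6 CPM in TMEM9 KD and 69.9 and 70.7 CPM in WT. It fell less, to 69.3% of WT, again without overlap (log2 fold change -0.53, SE 0.08, edgeR adjusted p = 1.92e-08). ARNT2, a paralog of ARNT that is not among the 10 genes, had 22 and 20.9 CPM in TMEM9 KD and 26.2 and 26.4 CPM in WT (log2 fold change -0.30, SE 0.11, edgeR adjusted p = 0.0184). HIF1A overlaps antisense genes, and the strand setting of the counting is not given. HIF1A-AS1 held 12 and 16 counts in TMEM9 KD and 5 and 12 in WT, and HIF1A-AS2 held 9 and 5 counts in TMEM9 KD and 16 and 26 in WT, beside at least 13420 counts of HIF1A in each library.

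The prolyl hydroxylases differed widely among themselves. EGLN3, the family member most strongly induced by hypoxia, had 78 and 118 counts in TMEM9 KD and 1192 and 1494 in WT, or 4.76 and 6.76 CPM in TMEM9 KD and 79.7 and 83.1 CPM in WT. Every WT library was more than 10 times as high as either knockdown library. EGLN3 fell 14.1-fold on mean CPM (log2 fold change -3.81, SE 0.12, edgeR quasi-likelihood adjusted p = 3.60e-50), and 1.65% of all genes tested had a lower log2 fold change. EGLN1, the main oxygen sensor that limits HIF in most cells, had 98.3 and 103 CPM in TMEM9 KD and 124 and 128 CPM in WT. The groups did not overlap, yet EGLN1 fell the least of the 9 genes, to 79.8% of WT (log2 fold change -0.33, SE 0.07, edgeR adjusted p = 2.37e-05). EGLN2, a prolyl hydroxylase that is not known as a HIF target, was the scarcest of the family, with 59 and 67 counts in TMEM9 KD and 80 and 101 in WT. These counts gave 3.60 and 3.84 CPM in TMEM9 KD and 5.35 and 5.62 CPM in WT (log2 fold change -0.56, SE 0.23, edgeR adjusted p = 0.0303). The call of EGLN2 ended without WT replicate 1 (edgeR adjusted p = 0.0769), without WT replicate 2 (0.145) and without TMEM9 KD replicate 1 (0.0842), and with DESeq2 (0.230) or library-size scaling (0.0611). Its exons overlap those of the read-through gene RAB4B-EGLN2 and of AC008537.1 on the same strand. Both were listed with no count in any library, and the labels do not give how reads from shared exons were assigned. The levels, rank and shares of EGLN2 given below carry the same limit.

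VHL, the substrate-binding part of the ubiquitin ligase that removes hydroxylated alpha subunits, had 83.4 and 77.1 CPM in TMEM9 KD and 115 and 111 CPM in WT. Both knockdown libraries were lower, and VHL stood at 70.7% of WT (log2 fold change -0.50, SE 0.07, edgeR adjusted p = 2.40e-09). HIF1AN, also called factor inhibiting HIF, had 51.3 and 46.7 CPM in TMEM9 KD and 43.5 and 41.6 CPM in WT. It was the one gene of the 10 on the higher side, at 115% of WT (log2 fold change 0.21, SE 0.09, edgeR adjusted p = 0.0389). This small difference was not called without WT replicate 1 (edgeR adjusted p = 0.134), without WT replicate 2 (0.308) or without TMEM9 KD replicate 1 (0.176), nor with DESeq2 (0.219) or without a filter on low counts (0.0961). Exons of HIF1AN overlap those of NDUFB8, a complex I subunit gene on the opposite strand, which was listed with 19 and 18 counts in TMEM9 KD and 11 and 19 in WT. Reads that fall on both genes may have been lost or split.

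The carbonic anhydrases held the largest and the third largest fall. CA9, which acidifies the space around hypoxic tumour cells, had 22 and 13 counts in TMEM9 KD and 814 and 1004 in WT. That was 1.34 and 0.745 CPM in TMEM9 KD and 54.4 and 55.9 CPM in WT, so that the 2 WT libraries were nearly equal while the low counts of the knockdown libraries differed by more in proportion. CA9 fell 52.8-fold on mean CPM, to 1.89% of WT (log2 fold change -5.73, SE 0.17, edgeR quasi-likelihood adjusted p = 7.90e-51), and 0.596% of all genes tested had a lower log2 fold change. CA12, an enzyme of the same kind that is also known as an oestrogen receptor target in breast cancer, had 193 and 188 CPM in TMEM9 KD and 536 and 549.5 CPM in WT. It fell 2.86-fold, with each group tight around its mean of 190.2 ± 3.67 CPM in TMEM9 KD and 543 ± 9.28 CPM in WT (SD, n = 2 each; log2 fold change -1.51, SE 0.06, edgeR adjusted p = 1.25e-42). CA9 exons overlap those of ARHGEF39 on the opposite strand, and ARHGEF39 held 272 and 243 counts in TMEM9 KD and 198 and 220 in WT. Tested against a change of 1.5-fold with edgeR's glmTreat, 5 of the 10 genes remained lower, against 11.3% of all genes: CA9 (adjusted p = 4.04e-47), EGLN3 (2.34e-45), CA12 (1.30e-28), HIF1A (0.00281) and EPAS1 (0.0267).

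**Figure D2:**
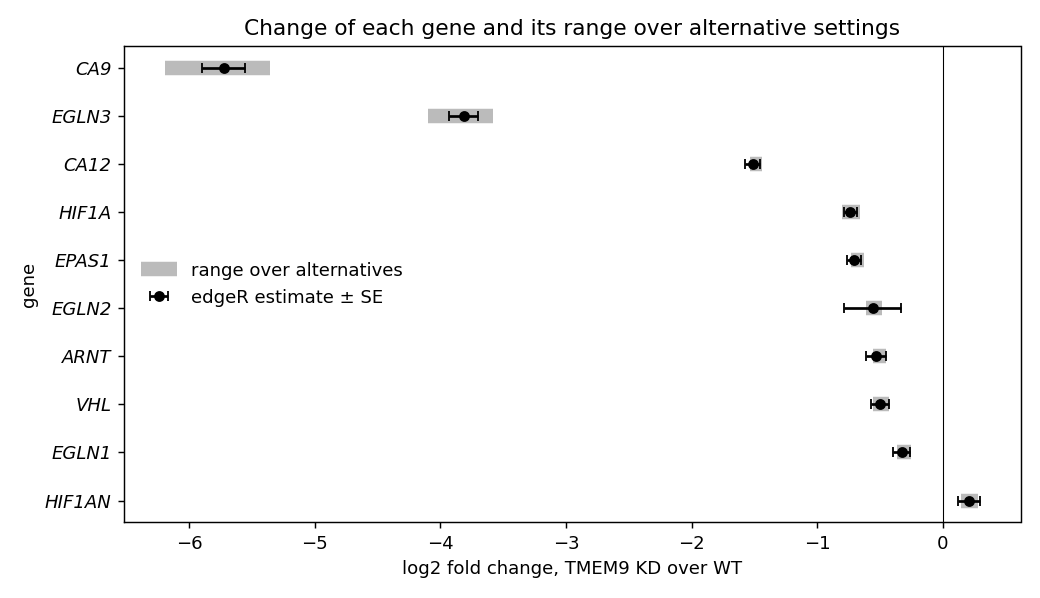
Log2 fold change of TMEM9 KD over WT for each gene (points, with SE as bars) and its range over 13 alternative settings (grey; 12 for EGLN2). CA9 and EGLN3 stand apart at -5.73 and -3.81, CA12 follows at -1.51, 6 genes lie between -0.74 and -0.33, and HIF1AN is at 0.21.

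To compare levels between genes, CPM was divided by the length of annotated exons in kilobases (kb), taken from GENCODE 29. On this scale HIF1A was the highest of the 10 genes in both groups, with 164 and 149 CPM per kb in TMEM9 KD and 259 and 262 CPM per kb in WT. In TMEM9 KD the order of mean levels per kb then ran EPAS1, CA12, VHL, EGLN1, ARNT and HIF1AN, each separate from the next. EGLN3, CA9 and EGLN2 closed the list at 0.783, 0.625 and 0.566 CPM per kb, and neighbours among these 3 overlapped between libraries. In WT the order was CA12, EPAS1, CA9, VHL, EGLN1, EGLN3, ARNT, HIF1AN and EGLN2, where EGLN3 and ARNT overlapped at 11.1 and 10.8 CPM per kb. CA9 thus stood at rank 9 in TMEM9 KD and rank 4 in WT on the scale per length, with 0.625 ± 0.254 CPM per kb in TMEM9 KD and 33 ± 0.598 CPM per kb in WT (SD, n = 2 each).

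The make-up of each family by level per length showed which pairs moved in proportion. HIF1A gave 83.3% and 82.6% of the summed alpha-subunit level per kb in TMEM9 KD and 83.2% and 83.4% in WT, so that its share of the pair moved by less than 1 point while the sum was 188.7 ± 11.3 CPM per kb in TMEM9 KD and 313 ± 1.79 CPM per kb in WT (SD, n = 2 each). Among the prolyl hydroxylases, EGLN3 gave 4.39% and 5.86% of the summed level per kb in TMEM9 KD and 37.7% and 37.9% in WT. EGLN1 made up 91.9% and 90.4% of that sum in TMEM9 KD and 59.5% and 59.2% in WT, with EGLN2 below 4% in every library. The 3 genes together had 15.2 ± 0.672 CPM per kb in TMEM9 KD and 29.3 ± 0.7 CPM per kb in WT (SD, n = 2 each), and EGLN3 made up most of that gap. CA9 gave 2.96% and 1.71% of the level of CA9 and CA12 per kb in TMEM9 KD and 30.8% in both WT libraries. With 2 libraries in each group an exact permutation test of these shares cannot give a p below 0.333, and none was run.

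**Figure D3:**
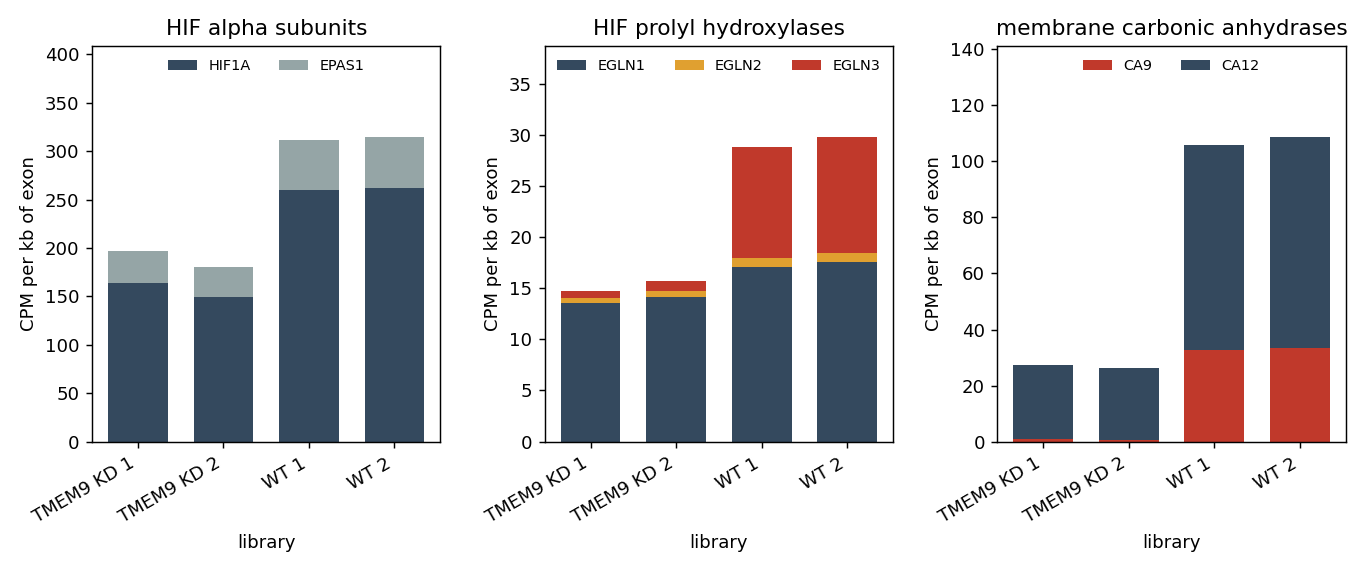
Level per kb of exon (CPM per kb, stacked by gene) in each library for the alpha subunits, the prolyl hydroxylases and the membrane carbonic anhydrases, with TMEM9 KD on the left of each panel. HIF1A and EPAS1 keep their proportion, while the EGLN3 and CA9 parts of the WT bars are nearly absent from the TMEM9 KD bars.

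Other components of the HIF pathway went both ways. Of 21 listed, 20 were tested, with 6 higher, 3 lower and 11 not past the threshold, and a median log2 fold change of -0.04. Over all genes tested, 28.7% were called higher and 29.0% lower. Higher calls were thus about as frequent here as among all genes, while lower calls, at 3 of 20, were less frequent. CREBBP, a coactivator that binds HIF, had 149 and 152 CPM in TMEM9 KD and 96.8 and 98.1 CPM in WT (log2 fold change 0.63, SE 0.07, edgeR adjusted p = 5.54e-14). SENP1, a protease that removes SUMO from HIF1A, had 50.8 and 51.8 CPM in TMEM9 KD and 37.3 and 43 CPM in WT (log2 fold change 0.35, edgeR adjusted p = 0.000448), a call lost without WT replicate 1 (adjusted p = 0.102). P4HTM, a membrane prolyl hydroxylase that can act on HIF, had 21.6 and 22.1 CPM in TMEM9 KD and 31.8 and 28.6 CPM in WT (log2 fold change -0.46, edgeR adjusted p = 0.000143). CITED4, which competes for the coactivators, had 6 and 29 counts in TMEM9 KD and 31 and 35 in WT, so that 1 knockdown library set its difference (edgeR adjusted p = 0.0473). Its log2 fold change was -0.96, beside -0.27 without TMEM9 KD replicate 1 and -2.44 without TMEM9 KD replicate 2. Without TMEM9 KD replicate 1 its adjusted p was 0.634, and without WT replicate 1 and 2 it was 0.157 and 0.126. With the 3 other scalings it lay between 0.0536 and 0.0668, and with DESeq2 it was 0.316. The third gene called lower was ARNT2, described above and named after its values were seen. The ARNT2 call ended with library-size scaling (adjusted p = 0.0801), with DESeq2 (0.134), without WT replicate 1 (0.0818) or 2 (0.108) and without TMEM9 KD replicate 2 (0.0598). Without WT replicate 1 the list gave 1 higher and 1 lower, without WT replicate 2 it gave 2 and 1, and without TMEM9 KD replicate 1 it gave 7 lower. ELOB, ELOC, CUL2 and RBX1, the partners of VHL in its ligase, did not pass the threshold, with log2 fold changes of 0.10, -0.12, -0.03 and -0.44 and SE of 0.07, 0.08, 0.07 and 0.35.

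Of 13 other carbonic anhydrases, only 4 passed the filter, of which 0 rose and 3 fell. Among all genes tested, 28.7% were called higher and 29.0% lower. CA2, a cytosolic enzyme that is fast and widespread, had 11 and 8 counts in TMEM9 KD and 200 and 306 in WT, or 0.672 and 0.458 CPM in TMEM9 KD and 13.4 and 17 CPM in WT. It was low in both knockdown libraries (log2 fold change -4.75, SE 0.26, edgeR quasi-likelihood adjusted p = 2.78e-30). CA11, a related protein without catalytic activity, had 4.89 and 3.32 CPM in TMEM9 KD and 9.30 and 11.1 CPM in WT (log2 fold change -1.32, edgeR adjusted p = 6.57e-09). CA5B, a mitochondrial enzyme, had 9.22 and 10.8 CPM in TMEM9 KD and 13.2 and 14.7 CPM in WT (log2 fold change -0.48, edgeR adjusted p = 0.00412), and it missed the threshold with WT replicate 2 left out (adjusted p = 0.0801) and with DESeq2 (0.0858). CA13, a cytosolic enzyme, did not pass, with 11 and 7.45 CPM in TMEM9 KD and 12 and 8.85 CPM in WT. The other 9 had at most 20 counts in a library, and CA5A had none. CA14, with 3 and 1 counts in TMEM9 KD and 3 and 20 in WT, was not tested. When a library is left out, such a gene can pass the filter through 1 library alone.

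Of 19 genes of acid and bicarbonate transport, which move the products of carbonic anhydrases across the membrane, 15 were tested, with 5 higher and 7 lower and a median log2 fold change of -0.36. The shares over all genes tested were 28.7% higher and 29.0% lower. SLC9A2, a sodium-proton exchanger, had 6.05 and 6.76 CPM in TMEM9 KD and 0.669 and 1.28 CPM in WT (log2 fold change 2.67, SE 0.30, edgeR adjusted p = 4.28e-13). The bicarbonate transporter SLC4A8 had 34 and 37 counts in TMEM9 KD and 3 and 12 in WT (log2 fold change 2.20, edgeR adjusted p = 5.32e-05). Its log2 fold change was 3.33 without WT replicate 2 and 1.64 without WT replicate 1. SLC4A4, a sodium bicarbonate cotransporter, had 13 and 11 counts in TMEM9 KD and 4 and 1 in WT (log2 fold change 2.16, edgeR adjusted p = 0.00977). The log2 fold change of SLC4A4 was 3.51 without WT replicate 1 and 1.38 without WT replicate 2. The threshold was missed without WT replicate 2 (adjusted p = 0.285), without TMEM9 KD replicate 1 (0.112), without TMEM9 KD replicate 2 (0.0615) and with DESeq2 (0.189). SLC9A3, another sodium-proton exchanger, was named after its values were seen, with 18 and 16.1 CPM in TMEM9 KD and 13.2 and 12.2 CPM in WT (log2 fold change 0.43, SE 0.14, edgeR adjusted p = 0.00528). DESeq2 (adjusted p = 0.100) and the fit lacking WT replicate 2 (0.0896) did not call SLC9A3. In these libraries SLC9A2, SLC4A8 and SLC4A4 were all scarce. Monocarboxylate transporters, which carry lactate together with a proton, differed in direction. SLC16A7 had 53.7 and 52.6 CPM in TMEM9 KD and 29.2 and 24.9 CPM in WT (log2 fold change 0.98, SE 0.09, edgeR adjusted p = 6.10e-16). SLC16A3, a known HIF target, had 121 and 139 CPM in TMEM9 KD and 213 and 215 CPM in WT (log2 fold change -0.71, SE 0.06, edgeR adjusted p = 1.91e-17), and SLC16A1 had 223 and 216 CPM in TMEM9 KD and 357 and 366 CPM in WT (log2 fold change -0.72, SE 0.06, edgeR adjusted p = 3.46e-20). SLC16A3 and SLC16A1 were singled out after their values were seen. Without WT replicate 2 the list gave 3 higher.

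Of 22 known HIF target genes, all tested, 20 fell, 0 rose and 2, ANKRD37 and SLC2A1, did not pass the threshold. By comparison, 29.0% of all genes tested were called lower and 28.7% higher. The list was chosen with earlier results of these data known, so these counts are a description, and no set test was run. All 22 had log2 fold changes below 0, and their median was -1.01, beside 0.0070 over all genes. ANGPTL4, a secreted regulator of lipoprotein lipase, had 1.16 and 2.58 CPM in TMEM9 KD and 25.8 and 26.2 CPM in WT (log2 fold change -3.78, SE 0.19, edgeR adjusted p = 9.87e-34). Without TMEM9 KD replicate 2 its log2 fold change was -4.49, beside -4.10 for EGLN3. DDIT4, an inhibitor of mTORC1, had 16.9 and 17.8 CPM in TMEM9 KD and 149 and 124 CPM in WT (log2 fold change -2.97, SE 0.09, edgeR adjusted p = 1.68e-50). PDK1, the kinase that shuts off pyruvate dehydrogenase, had 15.7 and 13.3 CPM in TMEM9 KD and 43.9 and 48.2 CPM in WT. NDRG1 had a log2 fold change of -3.28, and CA9 had a larger fall than any of the 22. EGLN3 and ANGPTL4 were within their SE of each other, and ANGPTL4 had the larger fall with limma voom (log2 fold change -3.83 for EGLN3 and -3.87 for ANGPTL4). SLC2A1, the glucose transporter often used as a hypoxia marker, had 331 and 346 CPM in TMEM9 KD and 357 and 353 CPM in WT (log2 fold change -0.07, SE 0.06, edgeR adjusted p = 0.297).

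**Figure D4:**
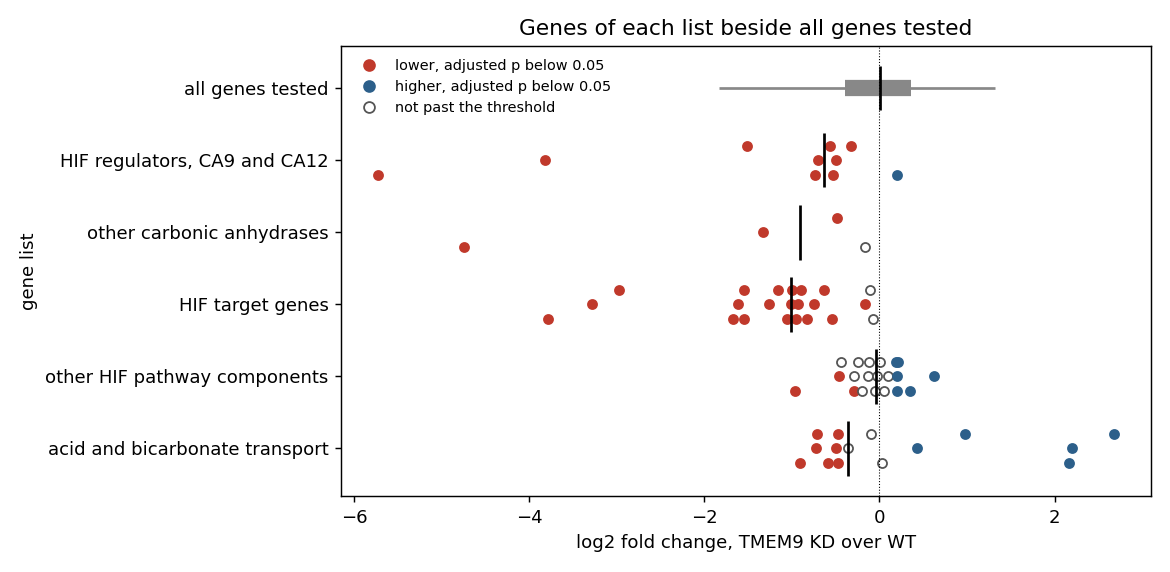
Log2 fold change of TMEM9 KD over WT for each tested gene of 5 lists, with black bars at the list medians; red is lower and blue higher with an adjusted p below 0.05, and open points did not pass. For all genes tested the grey bar spans the 25th to 75th percentile and the line the 5th to 95th percentile (-1.83 to 1.32), and the HIF targets have their median at -1.01.

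The genes most like CA9, EGLN3 and CA12 over the 4 libraries were found by the Euclidean distance between profiles of log2 CPM centred on their means. For CA9 these were SERPINB4, ITM2A and APOE, at distances of 0.193, 0.216 and 0.325. Reads of SERPINB4, a clade B serpin, may be shared with the near-identical SERPINB3. APOE, the apolipoprotein, had 0.855 and 0.573 CPM in TMEM9 KD and 47.7 and 49.1 CPM in WT. For EGLN3 they were STAC2, HNMT and MYCNOS, at distances of 0.118, 0.132 and 0.141, where MYCNOS lies antisense to MYCN. For CA12 they were RCAN1, TENT5A and TMSB4X, at distances of 0.0150, 0.0244 and 0.0266. RCAN1, a regulator of calcineurin, had 108 and 106 CPM in TMEM9 KD and 302 and 307 CPM in WT. With 4 libraries in 2 groups, likeness here mostly reflects the size of the difference between groups.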

How the data were processed

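RNA-seq of 4 libraries was used, 2 labelled TMEM9 KD and 2 WT. The authors deposited raw counts per Ensembl gene, 48162 genes by 4 columns, with totals of 15323843 to 18517337. CASAVA, Bowtie 0.12.2, hg19 and mm8 are listed, without roles, per the submitters' processing notes. The counting tool, annotation and strand are not stated in these sources. Symbols were found for 45342 genes and 128 of 129 list entries, and exon lengths and overlaps came from GENCODE 29, of another build than hg19. No column lacked a sample.

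The test was edgeR 4.0.16 (R 4.3.3) quasi-likelihood on the counts, with TMM factors, filterByExpr (minimum count 10, minimum total 15), group as the only term and 2 residual degrees of freedom. Benjamini-Hochberg adjustment ran over 14923 genes, threshold 0.05. The SE was derived from the fold change and its F statistic. The fit was tested on simulated counts. Alternatives were other scaling, filters, DESeq2 1.42.0, limma 3.58.1 voom, a test against 1.5-fold, a replicate block and dropping each library in turn. The members and lists were chosen with earlier results of these data known. Named were all 10 genes, TMEM9, up to 4 called genes per list with the largest change, and the 3 genes most alike (prior count 2) to each of the 3 members that changed most. Replicates differed beyond sampling noise (chi-square over degrees of freedom 4.82 for TMEM9 KD and 2.04 for WT), and each was kept.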

Additional observations from a re-analysis of the deposited data

How the results depend on the processing

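Over 13 alternatives, 541 values were recomputed and none changed direction; 475 kept their call or, for counts, stayed within 1.5 times, 43 calls were lost and 23 counts moved by over 1.5 times. CA9, EGLN3, CA12, HIF1A and EPAS1 kept their calls in all 13. CA9 ranged from -6.19 to -5.36 on the log2 scale and EGLN3 from -4.10 to -3.58. ARNT, EGLN1 and VHL lost theirs only in the test against 1.5-fold, in which fewer genes can pass by construction.

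That test called 1111 genes higher and 1692 lower, 0 members higher and 5 lower, 0 other HIF pathway components higher and 0 lower, and 3 acid and bicarbonate transport genes lower. The members higher numbered 0 without a filter and with DESeq2. Other HIF pathway components lower numbered 1 with library-size scaling and 1 with DESeq2. Acid and bicarbonate transport genes higher numbered 2 with a mean of at least 5 CPM and 3 with DESeq2. The cause was not tested.

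Leaving out each library in turn gave 0 to 1 members higher and 8 to 9 lower, 1 to 7 other HIF pathway components higher and 1 to 7 lower, 2 to 5 other carbonic anhydrases lower, 3 to 5 acid and bicarbonate transport genes higher and 7 to 9 lower, and 19 to 21 HIF targets lower. A lone library was assumed to vary like the other group. The filter was applied anew in each of these fits. The other carbonic anhydrases tested were therefore not always those of the full fit, and their counts are not over the same genes.

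Deviations of libraries with the same replicate number were almost uncorrelated between groups (correlation 0.00047). With so few libraries, this cannot tell whether they were paired. With a replicate block, 4171 genes were higher and 4266 lower, with 1 member higher and 9 lower. The low counts of CA9 and EGLN2 limit the precision of both.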
